A study of Homo sapiens with 12 samples.

Results

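Keratins and desmosome proteins are described here in lung cancer cells that did or did not carry a HOXC6 vector. The members are 10 genes listed by symbol, namely KRT7, KRT17, KRT18, KRT23, KRT80, DSP, DSG2, DSC2, PKP2 and EVPL. They were found in the count table by Ensembl identifier, and all 10 were among its 12584 complete genes.

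RNA-seq was done on A549 and PC9, established human lines of non-small cell lung cancer, with polyadenylated RNA and paired reads. Each line was infected with the lentiviral vector pCDH-HOXC6 (A549-HOXC6, PC9-HOXC6) or with the empty vector pCDH-NEO (A549-NEO, PC9-NEO), so the controls also carry a vector, and both kinds of cell were kept in neomycin. The 4 groups have 3 libraries each, 12 in all, and the comparisons are between stably infected cells of 1 line in culture, with the added HOXC6 read from the vector. HOXC6 itself was not analysed here, so the vector labels were not checked against its counts. The labels call the replicates independent without saying whether they came from separate cultures, and the p-values therefore measure the spread between these libraries.

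Keratins are the intermediate filament proteins of epithelial cells, and each filament is built from pairs of a type I (acidic) and a type II (basic) keratin. Desmosomes are adhesive junctions that tie the keratin filaments of neighbouring cells together. Their desmogleins and desmocollins are cadherins that bind between cells, while plakophilins and desmoplakin form the plaque beneath the membrane to which the filaments attach. KRT7 and KRT18 are keratins of simple epithelia such as the lung lining, whereas KRT17 belongs to stratified and stressed epithelia.

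The upstream bases of the desmosomal genes DSP, DSG2 and DSC2 are shown because sequences were available for these members. DSP and DSG2 return below in the response to HOXC6 and DSC2 in the level in the lines. A link between the marked motifs and those results was not tested. The windows were taken from RefSeq (GRCh38.p14) and span the 250 bases before each annotated start, printed 5′ to 3′ on the gene's strand. Entries matched 3 of the 10 members, and KRT7, KRT17, KRT18, KRT23, KRT80, PKP2 and EVPL had none. Capitals mark CAGGTG, the E-box bound by ZEB and SNAI repressors, or its reverse complement CACCTG, and the homeodomain core TAAT or its reverse complement ATTA.
DSP, chr6:7541421-7541670, forward strand: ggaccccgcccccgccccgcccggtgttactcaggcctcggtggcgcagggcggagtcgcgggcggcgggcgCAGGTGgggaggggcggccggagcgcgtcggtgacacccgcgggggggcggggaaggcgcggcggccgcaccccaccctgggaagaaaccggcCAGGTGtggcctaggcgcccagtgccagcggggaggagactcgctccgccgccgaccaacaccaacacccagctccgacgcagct
DSG2, chr18:31497927-31498176, forward strand: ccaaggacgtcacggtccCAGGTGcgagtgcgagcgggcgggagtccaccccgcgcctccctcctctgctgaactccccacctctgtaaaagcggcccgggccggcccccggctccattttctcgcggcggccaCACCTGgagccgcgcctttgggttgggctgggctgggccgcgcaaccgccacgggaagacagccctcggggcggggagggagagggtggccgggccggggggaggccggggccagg
DSC2, chr18:31102422-31102671, reverse strand: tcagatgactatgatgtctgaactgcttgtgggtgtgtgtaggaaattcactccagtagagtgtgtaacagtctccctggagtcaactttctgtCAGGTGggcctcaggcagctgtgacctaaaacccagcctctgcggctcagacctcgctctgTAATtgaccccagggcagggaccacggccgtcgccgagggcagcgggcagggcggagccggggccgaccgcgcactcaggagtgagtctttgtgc
The DSP window holds CAGGTG 2 times and the DSG2 window holds it 2 times, once on each strand. The DSC2 window holds it 1 time, and the window of a second annotated DSC2 start (chr18:31101261-31101510) holds none. On either strand, CAGGTG occurs in 17.5% of the 35116 RefSeq windows of this length and TAAT in 47.4%. Among the members' windows, TAAT was found only in the printed DSC2 window. The longer HOX and PBX pattern TGATNNAT, present in 6.47% of windows, was in none of the members' windows. These matches are letters in a window and are no measure of binding. The windows are 78.0% (DSP), 75.2% (DSG2) and 59.6% (DSC2) GC, against a median of 58.0% over all windows.

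Library totals ran from 1212053 to 3286577 counts, so that 3 counts, taken as the floor of detection, equal 0.915 to 2.57 CPM (counts scaled to the library's size). Levels are CPM normalized by the TMM method over the 12 libraries. A549-HOXC6 replicate 3 stood apart, with 11195 genes at 1 count or more where the other libraries had 9714 to 10331, and with 730 genes seen in no other A549 library where others had 24 to 94. CDKN2A, which is deleted in A549, had 0 or 1 count in the A549 libraries and 499 to 1406 in the PC9 libraries. Of the 6 epithelial markers, 3 were in the table and had counts in every library. Of 5 leukocyte markers 2 were in the table, with at most 4 counts summed in any library, and LYZ was at 0 throughout. Of 4 endothelial markers 2 were in the table, with at most 10 counts summed, the highest in A549-HOXC6 replicate 3. Of 5 fibroblast markers 5 were in the table, and their summed level was 67.5 to 69.7 CPM in A549-NEO, 54.2 to 77.6 in A549-HOXC6, 19.5 to 33.2 in PC9-NEO and 28.8 to 39.6 in PC9-HOXC6. COL1A1 makes up most of that sum, with means of 67.7, 64.5, 24.8 and 33.1 CPM in these groups. COL1A2, COL3A1, PDGFRB and DCN had at most 4 counts in any library. Of 7 stratified squamous markers 4 were in the table, with 4 to 24 counts summed and DSG3 at 0.

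The type II keratin KRT7 (ENSG00000135480, chromosome 12 from 52626304 to 52645970 of GRCh37, forward strand) had the highest level of the members in A549. Normalized CPM of KRT7 was 6640, 6422 and 6485 in A549 cells with NEO, and 7461, 7787 and 9414 in those with HOXC6. PC9 cells had 4833, 4680 and 4986 with NEO, and 4584, 4592 and 4801 with HOXC6. The HOXC6 libraries lay above the NEO libraries in A549, with A549-HOXC6 replicate 3 the highest, while the PC9 groups overlapped. In A549 26.8% of all genes tested were apart upward, and the KRT7 difference did not pass after the GC correction described below.

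KRT80 (ENSG00000167767, chromosome 12 from 52562780 to 52585798, reverse strand) is a type II keratin reported near desmosomes in differentiating cells. Its normalized CPM was 383, 376 and 388 in A549 with the empty vector, compared with 489, 467 and 525 under HOXC6. PC9 libraries stood at 282, 292 and 296 with the empty vector, compared with 308, 281 and 314 under HOXC6. KRT80 was thus higher in each A549-HOXC6 library than in any A549-NEO library, and the PC9 groups overlapped. Such a gap upward held for 26.8% of all genes tested in A549, and that of KRT80 did not pass after the GC correction.

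KRT18 (ENSG00000111057, chromosome 12 from 53342655 to 53346690, forward strand) encodes a type I keratin that pairs with KRT8 in simple epithelia. KRT8 was not analysed here. KRT18 stood at 1182, 1184 and 1143 normalized CPM in the control A549 libraries, rising to 1605, 1739 and 2089 in those with HOXC6. The PC9-NEO libraries had 6062, 5584 and 6123, and the PC9-HOXC6 libraries 5512, 5669 and 5572. All PC9 libraries lay above all A549 libraries for KRT18, and the HOXC6 and NEO groups were apart in A549 but overlapped in PC9. Of all genes tested in A549, 26.8% were apart upward. The annotation lists 68 pseudogenes named after KRT18, and 525 bp of its exons overlap KRT8 on the other strand, so its counts carry an uncertainty from shared reads.

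The remaining type I keratins were close to or under the floor. KRT17 (ENSG00000128422, chromosome 17 from 39775694 to 39781094, reverse strand) had 1, 0 and 0 counts in A549 controls and 0 in each A549-HOXC6 library. Its PC9 counts were 1, 2 and 0 for NEO, compared with 3, 0 and 12 for HOXC6, so 12 of the 15 counts came from 1 library. The ratio of the summed KRT17 counts, PC9-HOXC6 over PC9-NEO, was 4.62 with an exact 95% counting interval of 1.31 to 24.9, which covers counting error only. Without a filter on low counts, edgeR gave KRT17 an adjusted p of 0.153 in PC9.

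KRT23 (ENSG00000108244, chromosome 17 from 39078952 to 39093898, reverse strand) had 11, 5 and 7 counts in A549 controls, compared with 1, 3 and 1 under HOXC6. Each A549-HOXC6 library held fewer counts than any A549-NEO library, although in normalized CPM the groups overlapped. The summed ratio was 0.297, with a counting interval of 0.0883 to 0.800, and the adjusted p without a filter was 0.128 by edgeR. In PC9 the counts of KRT23 were 8, 2 and 8 with NEO and 7, 6 and 13 with HOXC6, a ratio of 1.33 with an interval of 0.704 to 2.58. The annotation also lists 8 pseudogenes named after KRT17. Both genes were too low to enter any of the tests described next, and a change at this depth could not be resolved.

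Desmoplakin, DSP (ENSG00000096696, chromosome 6 from 7541571 to 7586947, forward strand), links the plaque to the keratin filaments. DSP was at 199, 194 and 179 normalized CPM in A549 controls, compared with 156, 112 and 102 under HOXC6. PC9 controls had 584, 602 and 596 where PC9-HOXC6 had 740, 690 and 656. The HOXC6 libraries thus lay below the NEO libraries in A549 and above them in PC9, with no overlap in either line. In this way 23.6% of all genes tested were apart downward in A549, and 19.5% upward in PC9.

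The desmoglein DSG2 (ENSG00000046604, chromosome 18 from 29078140 to 29128971, forward strand) is the desmosomal cadherin made by simple epithelia and by most other cells with desmosomes. DSG2 had 110, 106 and 98.2 normalized CPM in A549 controls, where HOXC6 libraries had 71.0, 63.3 and 50.8. PC9-NEO had 125, 129 and 120, and PC9-HOXC6 109, 106 and 113. In both lines each HOXC6 library was below each NEO library, as held for 23.6% of all genes tested in A549 and 20.4% in PC9. The gap was wider in A549, and the PC9 direction turned with the GC correction described below.

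The desmocollin DSC2 (ENSG00000134755, chromosome 18 from 28638806 to 28682485, reverse strand), the partner cadherin of DSG2, was the lowest desmosomal gene. It had 9, 1 and 4 counts in A549 controls, and under HOXC6 2, 0 and 3, with no library above the floor. PC9 controls stood at 24.9, 27.2 and 21.2 normalized CPM, PC9 cells with HOXC6 at 14.95, 8.85 and 23.2. The PC9 groups overlapped through PC9-HOXC6 replicate 3. In A549 the ratio of summed DSC2 counts was 0.489 with a counting interval of 0.138 to 1.44.

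PKP2 (ENSG00000057294, chromosome 12 from 32943679 to 33049732, reverse strand) encodes plakophilin 2, a plaque protein that joins the cadherins to desmoplakin. PKP2 was at 13.5, 11.7 and 14.1 normalized CPM in A549 controls, compared with 13.1, 9.42 and 14.98 under HOXC6. PC9-NEO libraries had 155, 154 and 149, and PC9-HOXC6 libraries 153, 178 and 171. The HOXC6 and NEO groups overlapped in each line, and the lines were far apart. Exons of PKP2 (424 bp) and of DSC2 (554 bp) overlap another gene on the same strand, and the reads there are of uncertain origin.

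EVPL (ENSG00000167880, chromosome 17 from 74000583 to 74023387, reverse strand) encodes envoplakin, a plakin of desmosomes and of the cornified envelope. Its normalized CPM was 104, 120 and 111 in A549 controls, compared with 165, 129 and 155 under HOXC6. In PC9 the controls had 165, 164 and 183 where HOXC6 libraries had 206, 205 and 230. In both lines all HOXC6 libraries lay above all NEO libraries, as they did for 26.8% of all genes tested in A549 and 19.5% in PC9.

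**Figure D1:**
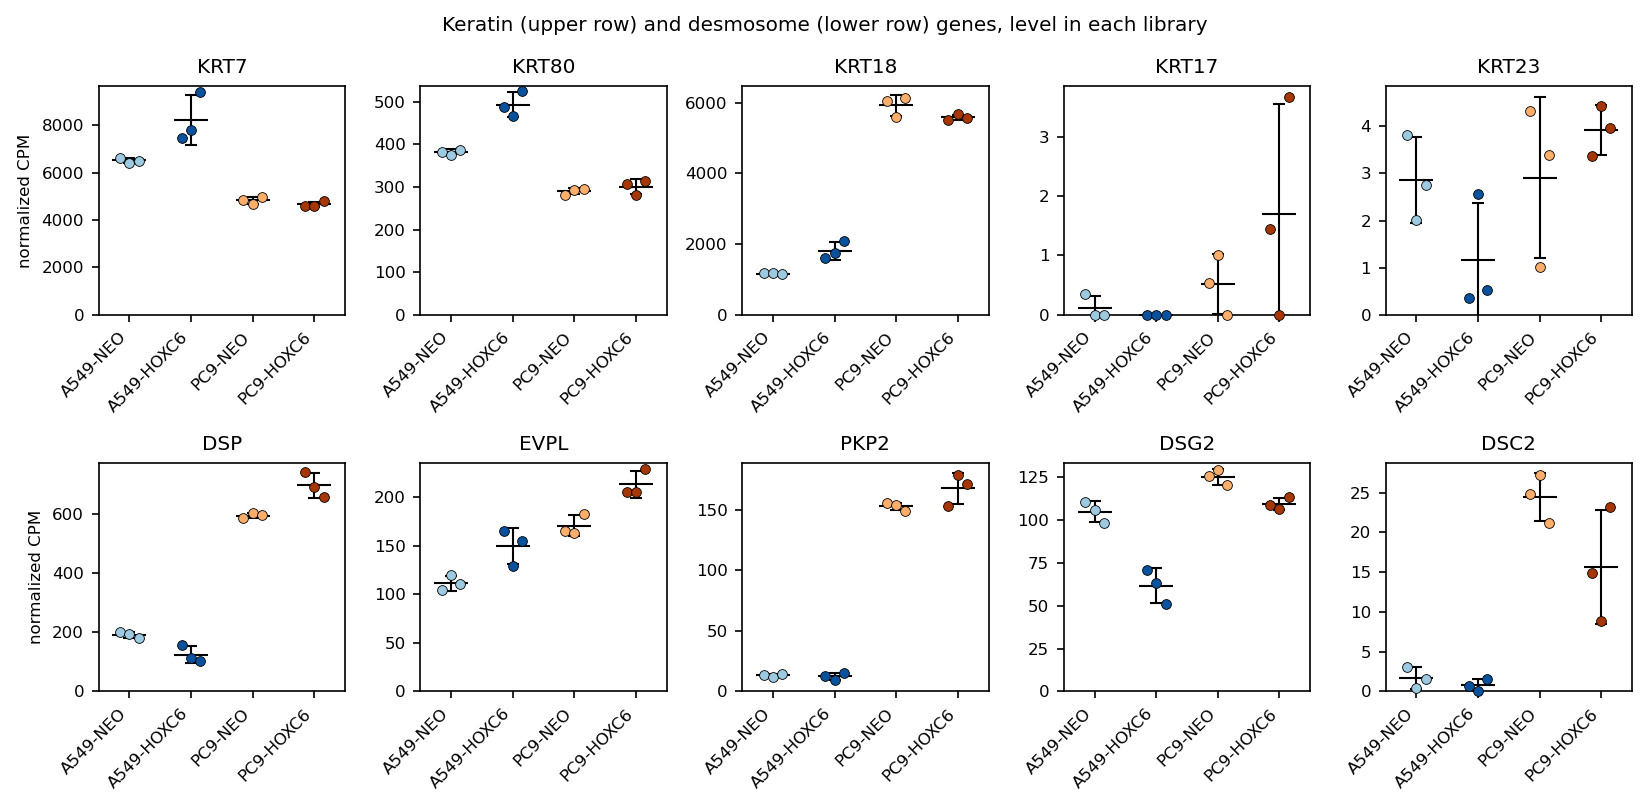
Normalized CPM (y axis, a separate linear scale from 0 for each gene) of the 10 genes in the 4 groups on the x axis. Points are the 3 libraries of a group in the order of their replicate numbers, the long dash is the mean and the bar is the SD, shown only above 0. KRT18, DSP, PKP2 and DSC2 are higher in all PC9 libraries than in any A549 library, and DSP moves down with HOXC6 in A549 and up in PC9.

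To set genes of unequal length beside each other, levels were divided by the length of the canonical transcript. In A549-NEO, KRT7 was at 4010 ± 69.04 normalized CPM per kb (SD, n = 3), KRT18 at 828 ± 16.6 and KRT80 at 98.7 ± 1.52. DSP (19.6 ± 1.07), DSG2 (18.4 ± 1.07) and EVPL (17.3 ± 1.19) followed in this per-length order, and neighbours among them overlapped. PKP2 was at 3.10 ± 0.307 per kb, and KRT23, DSC2 and KRT17 were under 2 per kb in every library, with DSC2 and KRT17 overlapping.

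In PC9-NEO the order per length began with KRT18 at 4192 ± 209 and KRT7 at 2974 ± 94.4 normalized CPM per kb. KRT80 (74.9 ± 1.80), DSP (61.2 ± 0.960), PKP2 (36.1 ± 0.711), EVPL (26.4 ± 1.68) and DSG2 (21.95 ± 0.784) came next, without overlap between neighbours. DSC2 (1.98 ± 0.244), KRT23 (1.32 ± 0.774) and KRT17 (0.340 ± 0.332) came last, and neighbours among these overlapped. Among the members, the keratin at the top therefore differed between the lines, and other keratins such as KRT8 and KRT19 were not analysed here.

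The ratio of KRT7 to KRT18 within a library, per length and so free of library scaling, was 4.84 ± 0.114 in A549-NEO and 3.95 ± 0.0796 in A549-HOXC6. It was 0.710 ± 0.0178 in PC9-NEO and 0.726 ± 0.0225 in PC9-HOXC6. For DSP to DSG2 the ratio was 1.07 ± 0.00910 in A549-NEO and 1.17 ± 0.128 in A549-HOXC6, against 2.79 ± 0.0981 in PC9-NEO and 3.74 ± 0.309 in PC9-HOXC6. The ratio of KRT18 to DSP was 40.8, 42.0 and 43.9 in A549 controls, compared with 70.4, 106 and 141 under HOXC6. In PC9 it was 71.3, 63.6 and 70.6 with NEO and 51.1, 56.4 and 58.3 with HOXC6. The keratin KRT18 thus stood higher over desmoplakin in every A549-HOXC6 library, and lower in every PC9-HOXC6 library, than in the NEO libraries of the same line. These ratios are not corrected for the GC trend described below. With that correction the log2 changes of KRT18 and DSP were 0.31 and -0.53 in A549, and -0.24 and 0.28 in PC9.

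The lines were grown in different media (RPMI for A549, DMEM for PC9), so line and medium cannot be told apart in any comparison between them. They were first compared without HOXC6, over 9076 genes, by edgeR's quasi-likelihood test with Benjamini-Hochberg adjustment. A call needed an adjusted p under 0.05 together with a change of more than 1 on the log2 scale in either direction. Under the wider rule used below, a gene passed the test at that adjusted p whatever the size of its change. KRT18, DSP, PKP2 and DSC2 were called lower in A549-NEO than in PC9-NEO, 4 of the 8 members tested. Calls in this direction made up 16.4% of all genes tested, and no member was called higher, against 19.6% of all genes. At any size, 6 members were lower (35.7% of all genes) and 2 were higher (36.9%). The libraries of the lines did not overlap for any of these 8, which held downward for 38.2% and upward for 36.3% of all genes. The median log2 fold change of the 8 members was -1.09, beside 0.02 over all genes tested.

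Between the lines, PKP2 was 11.3-fold lower in A549-NEO (log2 fold change -3.49, SE 0.133, adjusted p = 2.37e-23). DSC2 was 13.1-fold lower (log2 fold change -3.71, SE 0.362, adjusted p = 1.83e-11), with only 14 counts in the 3 A549-NEO libraries together, and its log2 value was -4.48 without A549-NEO replicate 1. KRT18 was 4.93-fold lower (adjusted p = 1.14e-31) and DSP 3.03-fold lower (adjusted p = 6.78e-22). The called genes are thus the keratin KRT18, the plaque genes DSP and PKP2 and the desmocollin DSC2, not all tested keratins or plakins. In bulk RNA, fewer cells of a type and less RNA per cell cannot be told apart.

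The other members differed by less than 1 on the log2 scale. EVPL was 1.49-fold lower in A549-NEO (adjusted p = 5.41e-07), while KRT7 was 1.39-fold higher (adjusted p = 7.87e-13) and KRT80 1.35-fold higher (adjusted p = 4.03e-07). KRT7 and KRT80, both of type II, therefore lay in the opposite direction to the type I keratin KRT18. DSG2 was 1.16-fold lower (adjusted p = 0.0406), a difference that missed the threshold in 5 of 6 fits with 1 library left out, in DESeq2 (adjusted p = 0.114) and without a filter on low counts (adjusted p = 0.0731).

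**Figure D2:**
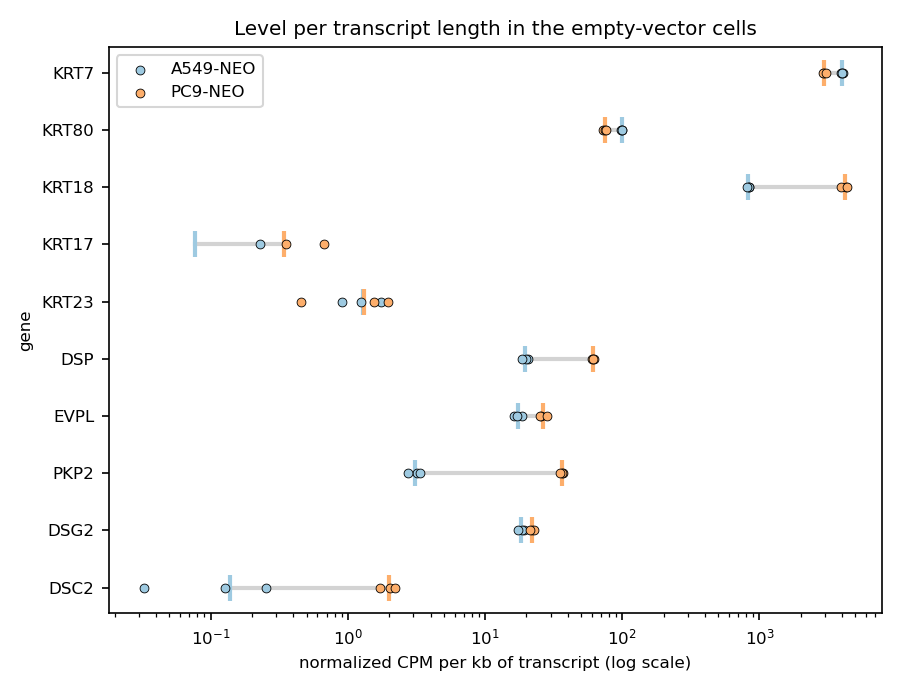
Level per transcript length, as normalized CPM per kb on a log axis, of the 10 genes in A549-NEO and PC9-NEO. Points are libraries above 0, vertical ticks are group means, and grey lines join the means of a gene. PKP2 and DSC2 are furthest apart between the lines, and DSG2 and KRT23 are closest together.

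Epithelial markers moved with this difference. CDH1, the E-cadherin of adherens junctions, was lower in A549-NEO by 1.02 on the log2 scale (adjusted p = 2.30e-15), with 183 ± 6.67 normalized CPM against 382 ± 8.37. EPCAM, an epithelial adhesion molecule, was at 5.76 ± 1.12 normalized CPM in A549-NEO and 196 ± 11.5 in PC9-NEO. With KRT18, all 3 epithelial markers in the table, of 6 listed, were called lower in A549-NEO. KRT18 is itself a member, so CDH1 and EPCAM alone are separate from the members' difference. The list's summed level was 1324 to 1380 normalized CPM in A549-NEO and 6176 to 6696 in PC9-NEO, and KRT18 makes up most of it. The part of the lines' epithelial state in the members' difference was not tested.

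Among 21 regulators of epithelial and keratin genes, 17 were tested between the lines. Of these, 9 were called lower in A549-NEO and 2 higher, where 16.4% and 19.6% of all genes tested were. At any size 11 passed as lower and 4 as higher, beside 35.7% and 36.9% of all genes. The median log2 fold change of the 17 was -1.65. GRHL2, a transcription factor of epithelial junction genes, had 0 counts in each A549-NEO library and 290 to 361 in PC9-NEO. ESRP1, a splicing factor of epithelia, had at most 1 count in A549-NEO and 401 to 519 in PC9-NEO. ZEB1, a repressor of epithelial genes, was higher in A549-NEO at 43.6 ± 5.58 normalized CPM against 5.99 ± 2.15. The other regulator called higher there was TFAP2A, at 136 ± 16.3 against 61.5 ± 2.23 (log2 fold change 1.18, adjusted p = 4.11e-12). ELF3 also passed as higher in A549-NEO (0.37, adjusted p = 8.44e-05). The named regulators thus do not all lie in 1 direction. Vimentin, VIM, the intermediate filament protein of mesenchymal cells, was at 2292 ± 33.4 in A549-NEO and 3.09 ± 0.814 in PC9-NEO, so the lines differed in filament type outside the keratins too. All genes of the lists named in this paragraph were chosen for naming after their values were seen.

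For DSC2, PKP2 and DSP, which had the widest range of group means, the genes with the most similar pattern were sought. Likeness was the root mean square difference of centred log2 levels over the 12 libraries, among 7885 genes with a mean of at least 10 CPM. PKP2 was closest to SMARCA4 (0.217), PLTP (0.228) and SLC4A11 (0.275). DSP was closest to SPTLC2 (0.184), ZNF516 (0.197) and AMOTL1 (0.199). DSC2 was closest to TMC8 (0.623), EFNB2 (0.652) and SOX15 (0.696).

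HOXC6 was then compared with the empty vector in A549, which asks whether forced HOXC6 changes the keratin and junction genes of these cells. The keratins KRT7, KRT80 and KRT18 and the plakin EVPL rose, and the desmosomal genes DSP and DSG2 fell, KRT7 and KRT80 only without a correction for GC content. Of the 7 members tested (KRT17, KRT23 and DSC2 were too low), 4 passed the test as higher and 2 as lower, where 18.9% and 20.7% of all 8771 genes tested did so. All changes were smaller than 1 on the log2 scale, so 0 of 7 were called by edgeR and 0 by DESeq2, while 7.21% of all genes were called by edgeR. At an unadjusted p under 0.05, 6 of the 7 passed. The share of all genes at that unadjusted p was not counted, and 39.6% of all genes passed even after adjustment. The median log2 fold change of the members was 0.29, beside -0.0005 over all genes tested.

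KRT18 rose 1.499-fold in A549-HOXC6 (log2 fold change 0.58, SE 0.0761, adjusted p = 8.93e-07). EVPL rose 1.32-fold (SE of the log2 value 0.110, adjusted p = 0.00476), KRT80 1.25-fold (SE 0.0798, adjusted p = 0.00189) and KRT7 1.22-fold (SE 0.0639, adjusted p = 6.96e-04). After the GC correction described below, KRT80 (0.14, adjusted p = 0.0928) and KRT7 (0.04, adjusted p = 0.424) did not pass. For these 4 genes and for DSP and DSG2, the HOXC6 and NEO groups did not overlap in 3 against 3 libraries. Of all genes tested, 26.8% did so upward and 23.6% downward.

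DSG2 fell 1.73-fold in A549-HOXC6 (log2 fold change -0.79, SE 0.131, adjusted p = 2.54e-05). DSP fell 1.56-fold (log2 fold change -0.64, SE 0.123, adjusted p = 1.62e-04). PKP2 had a log2 fold change of -0.08 with a 95% interval of -0.63 to 0.48 (adjusted p = 0.848), an interval that includes changes as large as that of DSP. PKP2 thus did not pass where DSG2 and DSP did, which does not show that its change is unlike theirs. Whether PKP2 differs from DSP in its change was not tested.

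In A549 the same 6 members passed the test whichever library was left out. Without A549-HOXC6 replicate 3, the log2 fold changes were 0.20 for KRT7, 0.48 for KRT18, 0.30 for KRT80, 0.41 for EVPL, -0.47 for DSP and -0.65 for DSG2. The highest level of KRT7, KRT18 and KRT80 and the lowest of DSP and DSG2 were in that library.

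In PC9, DSP and EVPL rose with HOXC6, EVPL only without the GC correction, and no tested keratin passed the test. Of the 8 members tested (KRT17 and KRT23 were too low), 2 passed as higher and 0 as lower, where 13.3% and 14.2% of all 8419 genes tested did so. None was called by edgeR or by DESeq2, against 4.53% of all genes in edgeR. Of the 8, 3 had an unadjusted p under 0.05, and the share of all genes at that level was not counted. The median log2 fold change of the members was 0.0056, beside -0.0046 over all genes. EVPL rose 1.26-fold (log2 fold change 0.33, SE 0.0840, adjusted p = 0.00348). DSP rose 1.17-fold (log2 fold change 0.23, SE 0.0626, adjusted p = 0.00640). With libraries scaled by their totals alone, DSP was at 0.15 (adjusted p = 0.0876) and KRT7, KRT18 and DSG2 passed as lower, while the median of all genes moved to -0.09. DSP also missed the threshold with the 12 libraries in 1 model (0.23, adjusted p = 0.0593).

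In PC9 the intervals of the 3 tested keratins all included 0, although KRT7 and KRT18 passed as lower after the GC correction described below and with library totals. The log2 fold change of KRT7 was -0.05 (95% interval -0.15 to 0.04), that of KRT18 -0.08 (-0.18 to 0.01) and that of KRT80 0.06 (-0.09 to 0.21). A rise of KRT18 of the size measured in A549 lies outside its PC9 interval. DSG2 was at -0.18 (-0.38 to 0.01, adjusted p = 0.152) although its groups did not overlap, which held downward for 20.4% of all genes. After the GC correction DSG2 was at 0.10 (adjusted p = 0.472). PKP2 was at 0.13 (-0.05 to 0.31). DSC2 was at -0.51 (adjusted p = 0.128), and with the GC correction it was at 0.022 (adjusted p = 0.964). Without PC9-HOXC6 replicate 3 the uncorrected value of DSC2 was -0.96 with an adjusted p of 0.0179. Its result thus depended on both 1 library and the correction.

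**Figure D3:**
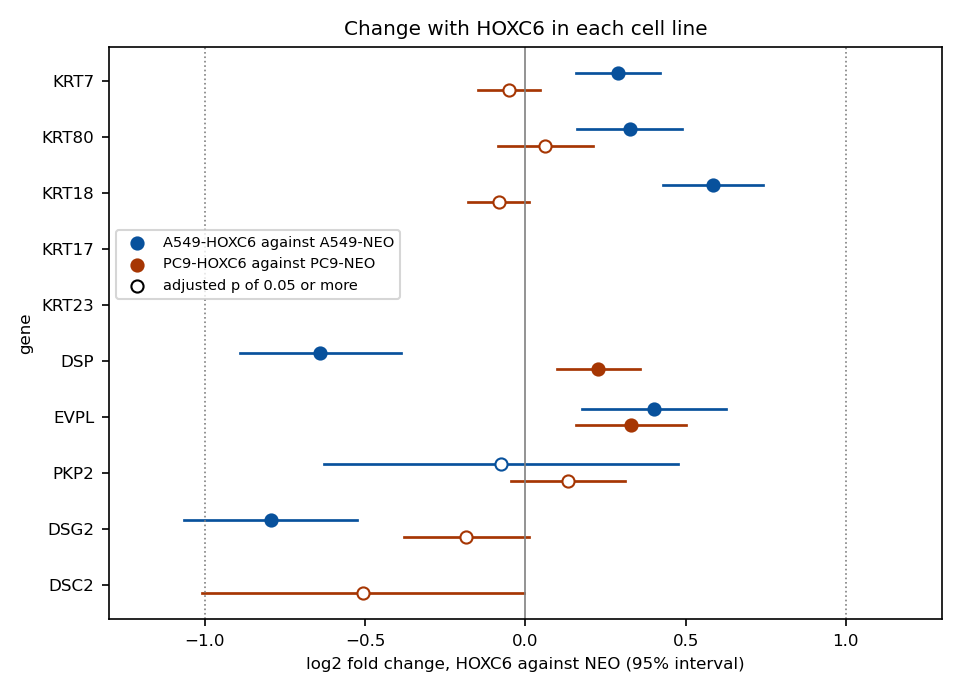
Log2 fold change of HOXC6 against NEO (x axis) with its 95% interval for each gene tested (y axis), in A549 (blue) and PC9 (brown). Filled points have an adjusted p under 0.05 and open points do not, dotted lines mark the size needed for a call, and KRT17 and KRT23 were tested in neither line, DSC2 in PC9 alone. In A549 KRT7, KRT80, KRT18 and EVPL lie right of 0 and DSP and DSG2 left of it, while in PC9 the filled points are DSP and EVPL.

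The difference of the HOXC6 changes, A549 minus PC9, was tested as an interaction over the 12 libraries and 9229 genes. It uses the libraries of both comparisons above and is no separate evidence of them. Of 8 members, 3 passed the test as higher in A549 and 2 as lower, where 10.9% and 8.44% of all genes did so. None was called by edgeR or DESeq2, against 5.15% of all genes in edgeR. Of the 8, 5 had an unadjusted p under 0.05, and the share of all genes at that level was not counted.

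DSP showed the widest gap among the members that passed, with opposite directions in the lines (difference -0.82, SE 0.138, adjusted p = 2.75e-05). The difference for KRT18 was 0.72 (SE 0.0969, adjusted p = 6.05e-07), that for KRT7 0.39 (adjusted p = 0.00163) and that for DSG2 -0.56 (adjusted p = 0.0108). KRT80 had 0.31 (adjusted p = 0.0430), which missed the threshold in 10 of 12 fits with 1 library left out, A549-HOXC6 replicate 3 among them (0.26, adjusted p = 0.0599). EVPL, whose rise in PC9 did not pass after the GC correction described below, had a difference of 0.12 with a 95% interval of -0.17 to 0.41 (adjusted p = 0.610). PKP2 was at -0.15 (-0.64 to 0.33) and DSC2 at -0.46 (-2.14 to 1.23), the latter an interval too wide to tell the lines apart.

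The HOXC6 changes of all genes went with the GC content of their transcripts. Genes are not independent replicates, and taken across them Spearman's rho between log2 fold change and GC content was 0.530 in A549 (8712 genes) and 0.527 in PC9 (8360 genes), and -0.0091 between the NEO groups. The members that rose in A549 are GC rich, at 62.0% (KRT7), 58.2% (KRT18), 56.9% (KRT80) and 64.9% (EVPL), where the median of the table is 48.6%. DSG2, which fell, is at 41.2%, DSP is at 47.6% and PKP2 at 46.1%. DSC2, tested with HOXC6 in PC9 alone, is at 38.95%. Genes in the bin of GC content around DSG2 (median GC 41.9%) had a median log2 fold change of -0.32 in A549, and those around DSP (median GC 47.1%) had 0.03.

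After a correction of each library for its trends on GC content and transcript length, 4 of the 6 A549 results passed the test. KRT18 had 0.31 on the log2 scale (adjusted p = 2.59e-06), EVPL 0.35 (0.00473), DSP -0.53 (4.61e-05) and DSG2 -0.39 (0.00763). KRT7 and KRT80 did not, with the values given above. The share of all genes that passed was 30.9% after the correction, against 39.6% before it.

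In PC9 the corrected rise of DSP was 0.28 (adjusted p = 7.29e-04), and EVPL, at 0.18 (adjusted p = 0.108), no longer passed. KRT7, at -0.23 (adjusted p = 8.13e-05), and KRT18, at -0.24 (adjusted p = 7.18e-05), then passed as lower, among 20.2% of all genes. The direction of DSP in each line and the rise of KRT18 and EVPL in A549 therefore passed with and without the correction, and the fall of DSG2 in A549 did as well. The corrected differences between the lines were -0.82 for DSP, 0.56 for KRT18, 0.29 for KRT7 and -0.49 for DSG2, with adjusted p of 5.10e-07, 2.00e-09, 4.19e-05 and 0.0124. That of KRT80 was 0.25 (adjusted p = 0.0536).

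**Figure D4:**
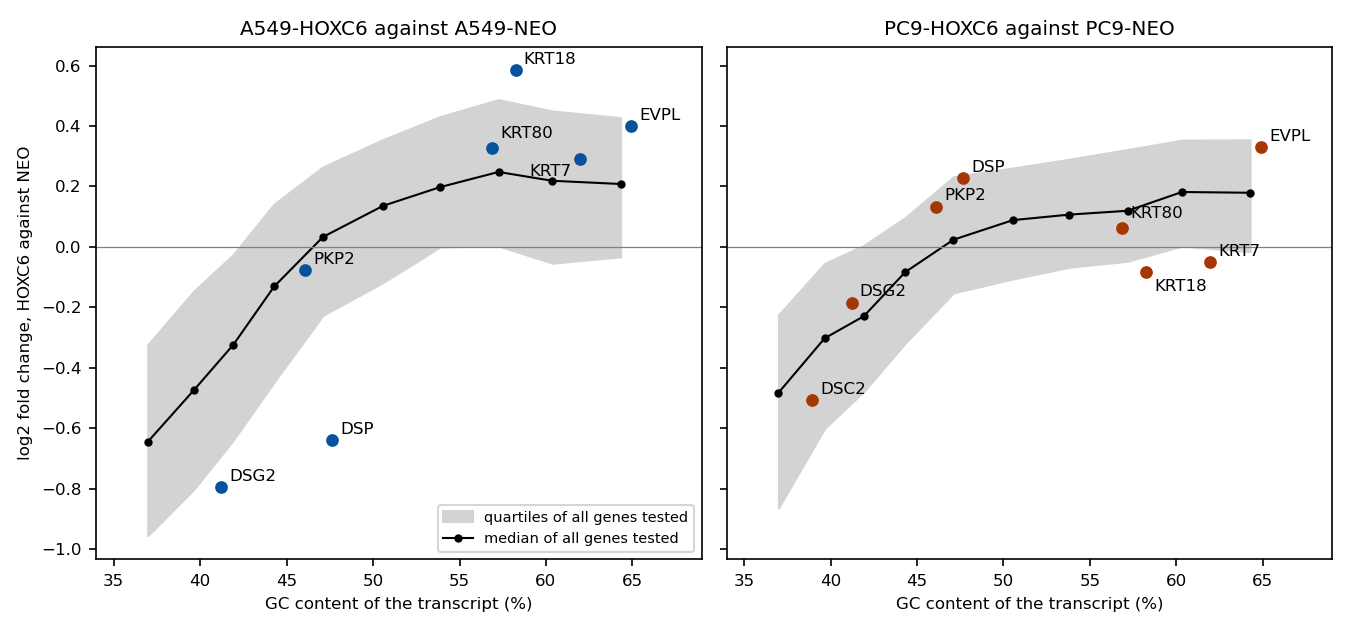
Log2 fold change of HOXC6 against NEO (y axis) against the GC content of the canonical transcript in percent (x axis) in A549 (left) and PC9 (right). The black line and the grey band are the median and quartiles of all genes tested in 10 bins of GC content, and coloured points are the members. KRT7 and KRT80 lie within the band in A549, DSP and KRT18 lie outside it there on opposite sides, and KRT7 and KRT18 lie below the band in PC9.

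Related gene lists were counted with the same tests. Of all genes tested, 18.9% passed as higher and 20.7% as lower in A549, and 13.3% and 14.2% in PC9. Calls made up 7.21% of all genes in A549, 4.53% in PC9 and 5.15% for the difference between the lines. The counts of each list below stand beside these shares, and no list was tested against them. Of 50 other keratins, 13 were in the table, and none of these 13 had enough counts to be tested, with at most 8 counts in any library. Genes with later identifiers than the table holds, such as KRT8, KRT19, KRT13, JUP and PKP3, were not analysed here. Absence from the table therefore gives no level and no HOXC6 change for a gene. Of 12 other desmosome genes, 8 were in the table and 3 were tested, the cell surface protein PERP, the plakophilin relative PKP4 and the plakin PPL (periplakin, the partner of envoplakin). None of the 3 passed the test in A549 or PC9. With the GC correction PERP passed as higher in both, at 0.29 in A549 (adjusted p = 0.00116, from -0.13 without it) and 0.46 in PC9 (adjusted p = 3.45e-05, from 0.16). PPL was called lower in A549-NEO than in PC9-NEO (120 ± 11.1 against 357 ± 8.94 normalized CPM). DSG3, the desmoglein of stratified epithelia, was at 0 counts in all 12 libraries.

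Hemidesmosomes tie keratins to the basement membrane, and 5 of their 9 listed genes were tested in each line. In A549 1 passed as higher and 2 as lower, both called, and in PC9 3 passed as higher and 1, called, as lower. LAMA3, a laminin chain, fell in A549 from 258, 261 and 256 normalized CPM with NEO to 124, 128 and 100 with HOXC6 (-1.18 on the log2 scale, adjusted p = 1.06e-09). In PC9 the log2 value of LAMA3 was 0.40 (adjusted p = 0.0904), and the difference between the lines was called (-1.53, adjusted p = 1.74e-07). DST, a plakin that binds keratin at hemidesmosomes and has other isoforms in muscle and nerve, fell in both lines, by 1.31 on the log2 scale in A549 (adjusted p = 1.12e-08) and by 1.86 in PC9 (adjusted p = 3.22e-09). With the GC correction, LAMA3 was at -1.16 in A549, while DST was at -0.74 in A549, under the size of a call, and at -1.35 in PC9.

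Other intermediate filaments had 8 of 15 genes tested in A549, with 3 higher and 1 lower at an adjusted p under 0.05, and 6 in PC9, with 2 higher and 1 lower. With the GC correction the counts were 2 higher and 3 lower in A549 and 1 and 1 in PC9. NES, the filament protein nestin, was called higher in PC9, from 17.8, 25.2 and 25.4 normalized CPM with NEO to 53.1, 59.0 and 56.1 with HOXC6 (log2 fold change 1.28, adjusted p = 7.20e-07). In A549, NES had 0.98 (adjusted p = 0.0258), and 0.85 (adjusted p = 0.0575) with the GC correction. The log2 value of VIM in A549 was 0.03 (adjusted p = 0.718), and with the GC correction it was -0.22 and passed as lower (adjusted p = 6.40e-05). LMNB1, a nuclear lamin, was the gene of this list called for the difference between the lines (1.20, adjusted p = 3.81e-06), at 0.74 in A549 and -0.42 in PC9. It was named after its values were seen.

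Adherens junction genes had 6 of 14 tested in A549, with 1 higher and 3 lower, and 7 in PC9, with 2 higher and 1 lower, and none was called. CDH1 fell in A549, where its libraries had 182, 190 and 177 normalized CPM with NEO and 162, 138 and 117 with HOXC6 (log2 fold change -0.43, adjusted p = 0.00305). It rose in PC9 (0.30, adjusted p = 6.91e-04), and the difference was -0.69 (adjusted p = 1.21e-04). With the GC correction the CDH1 values were -0.46 and 0.25, both with an adjusted p under 0.05. CDH1 was not called and was named here after its values were seen. EPCAM, of the same epithelial marker list, fell in PC9 (-0.33, adjusted p = 0.00438, or 0.0504 with the GC correction), and in A549 it was at -0.19 (adjusted p = 0.730). CDH3, P-cadherin, also named after its values were seen, had a called difference between the lines (-2.32, adjusted p = 2.81e-04), rose in PC9 (0.53, adjusted p = 4.51e-06) and was too low to be tested within A549. Of the epithelial and keratin regulators, 0 of 10 tested passed as higher and 3 as lower in A549, and 3 of 17 as higher and 2 as lower in PC9. The shares of all genes were 18.9% and 20.7% in A549, and 13.3% and 14.2% in PC9. ZEB1, named after its values were seen, was among the regulators lower in A549 (-0.78, adjusted p = 0.00187). With the GC correction ZEB1 was at -0.22 in A549 (adjusted p = 0.409), and its uncorrected PC9 value was 0.24 (adjusted p = 0.688). Whether ZEB1 has a part in the changes of DSP or DSG2 was not tested. Of the 15 cornified envelope genes, 1 was tested in A549 and passed as lower (ANXA1, named after its value was seen, at -0.87), and 4 were tested in PC9, where 0 passed as higher and 3 as lower. With the GC correction 1 gene passed as lower in PC9 in place of 3. PI3, a protease inhibitor of the envelope named after its values were seen, was called for the difference (adjusted p = 0.0456) but not without A549-HOXC6 replicate 3 (adjusted p = 0.300). In A549, PI3 had 0 counts in each NEO library and 1, 0 and 3 with HOXC6, with no library above the floor.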

How the data were processed

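The authors deposited a table of raw counts, whole reads assigned to each gene in each of the 12 libraries, neither normalized nor pooled. The authors made stranded libraries from polyadenylated RNA, aligned 150 bp read pairs with HISAT2 to GRCh37.p13 and counted genes with HTSeq. Per the labels the versions were HISAT2 2.1.0 and HTSeq 0.9.1, and the strand setting and annotation release are not given in the sources used here. The 12584 complete genes were used, with 1 incomplete last entry left out, and genes with later identifiers, such as KRT8, KRT19, KRT13, JUP and PKP3, were not analysed here, so scaling and adjustment cover part of the genes. Positions, lengths and GC content of 12463 genes came from the GENCODE annotation of GRCh37.

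Counts were fitted with edgeR 4.0.16 (R 4.3.3), with filterByExpr, TMM scaling, the quasi-likelihood test and Benjamini-Hochberg adjustment over all genes tested, without a replicate block. The members and gene lists were chosen with earlier results of these data known. Beside all members, genes of the lists called with HOXC6 (at most 5 a list) and the 3 genes most like the 3 members of widest range were named. Alternatives were DESeq2 1.42.0, RLE factors, library totals, other filters and thresholds, a GC and length correction (mgcv 1.9.3), a replicate block, 1 model over 12 libraries and leaving out each library. Same-numbered libraries of HOXC6 and NEO cells correlated between -0.0397 and 0.0509 in their deviations, so the numbers were not taken as pairs. The tests were also run on simulated counts, with the same spread set for every gene and no outlying library. These data differ from that setting, so the run is no measure of how the tests perform on them.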

Additional observations from a re-analysis of the deposited data

Results flagged for a closer look

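KRT7, KRT18, KRT80, DSP and DSG2 are listed because their HOXC6 changes differed in the interaction test between the lines, with the values given as A549 minus PC9 on the log2 scale. KRT18 differed by 0.72, KRT7 by 0.39 and KRT80 by 0.31, all higher in A549. DSP differed by -0.82 and DSG2 by -0.56, both lower in A549. The KRT80 difference missed the threshold in 10 of 12 fits with 1 library left out.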

How the results depend on the processing

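Counts of called members were 0 in A549, 0 in PC9, 4 between the NEO groups and 0 for the difference between the lines, and stayed within 1.5 times of these under the other scalings, filters, thresholds and models, with 3 in place of 4 where at least 10 counts were required in every library. Without the fold change criterion they were 6, 2, 8 and 5. Alternatives chosen after seeing the data dropped that criterion together with another choice. With the GC and length correction they were 4, 3, 8 and 4, with DESeq2 6, 2, 7 and 4, and with library totals 6, 4, 8 and 5. Library totals moved the median of all genes to -0.05 in A549, -0.09 in PC9 and -0.10 between the NEO groups, from values near 0. In PC9 DSP then had 0.15 (adjusted p = 0.0876), and KRT7, KRT18 and DSG2 passed as lower (-0.13, -0.17 and -0.27). With 12 libraries in 1 model DSP in PC9 had 0.23 (adjusted p = 0.0593), and without PC9-HOXC6 replicate 1 its adjusted p was 0.0499. Without A549-HOXC6 replicate 3 and with no fold change criterion the counts were 6 in A549 and 4 for the difference. Leaving out 1 library at a time gave 0 in A549 and PC9, 4 between the NEO groups, and 0 to 1 for the difference, where DSP reached -1.07 without A549-HOXC6 replicate 1. With the replicate number as a block the counts were again 0, 0, 4 and 0, and the block changed no member's side of the adjusted p threshold. Signs turned for values that had not passed the test. PKP2 in A549 ran from -0.18 to 0.036 with 1 library left out, turning without A549-HOXC6 replicate 2. KRT80 in PC9 was -0.021 with library totals, -0.10 with the GC correction and -0.10 with that correction and the block. DSG2 in PC9 was 0.10 with the GC correction and 0.10 with the block as well, and DSC2 in PC9 was 0.022 with the correction. The DSC2 difference ran from -1.17 to 0.34 with 1 library left out, turning without A549-NEO replicate 1. The cause of these turns was not tested. Depth limits DSC2 in A549 and KRT17 and KRT23 in all groups.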
